A study of Sus scrofa with 6 samples.

Results

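Adipose tissue of 2 pig breeds, Korean native and Berkshire, was compared gene by gene from RNA sequencing counts. The comparison took 2 of the 6 samples of the study, the fat of each breed, and all 25322 gene rows of their count tables. The study's other samples were liver and muscle of the same breeds, again 1 library for each breed and tissue. Both groups were Sus scrofa; the labels give breed and tissue, but no age, sex, diet, fat depot or treatment, nor the animal behind each library. The title speaks of 3 pigs or tissues of each breed without saying whether RNA was pooled. With 1 library on each side no test was possible, so every result below is a ratio of 2 counts with an exact 95% interval for counting error alone. Such an interval says nothing of the variation between animals of a breed, and the values describe these libraries.

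Fat is built of adipocytes, which hold triglyceride in a droplet coated by perilipins, and of a stroma of fibroblast-like precursors, vessels, nerves and macrophages in a collagen matrix. In the pig, adipose tissue is the main site of fatty acid synthesis, where acetyl-CoA carboxylase and fatty acid synthase build palmitate and stearoyl-CoA desaturase turns saturated into monounsaturated fatty acids. Fasting and glucocorticoids turn adipocytes towards lipolysis, while insulin favours synthesis and storage. Korean native pigs and Berkshire pigs are breeds kept for meat.

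The Berkshire fat library held 6335124 counts on genes and the Korean native one 6676206, 32.7% and 33.4% of all entries of their tables. The share of counts on the 13 mitochondrially encoded protein genes was 12.9% and 13.6%, and the 10 most abundant genes took 14.8% and 18.1%. Levels are CPM, counts brought to a common library size, scaled by the trimmed mean of M-values (TMM) over all 6 libraries. A count of 0 in a fat library allows a level of up to 0.297 CPM (Berkshire) or 0.299 CPM (Korean native), the value of 3 counts. The tissue label was checked with marker genes. PLIN1, which coats the lipid droplet, stood at 1109 CPM in Berkshire and 628.9 CPM in Korean native fat, against 3.16 and 1.14 CPM in the livers and 95.3 and 18.9 CPM in the muscles. ALB, the albumin of hepatocytes, had 20.8 and 31.3 CPM in the fats, and ACTA1, the actin of skeletal muscle, 8.43 and 14.0 CPM, against 174200 and 209200 CPM of ALB in liver and 48840 and 71070 CPM of ACTA1 in muscle. ADIPOQ, LEP and FABP4 matched no gene ID by name and were not analysed here.

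A mean of at least 5 CPM over both fats was reached by 9724 genes, of which 7044 had a symbol. A gene below 5 CPM in 1 fat passed this filter only through the other. Its direction was then fixed by the filter, in the counts here and below. The median log2 ratio of these genes was 0.01 (Korean native over Berkshire), and 5% of them lay below -0.84 and 5% above 0.93. A ratio above 1 was found for 51.3% of genes and a ratio below 1 for 48.7%. The counting interval was clear of 1, in either direction, for 5101 of the 9724 genes (52.5%). At least 2-fold higher in Korean native fat were 410 genes (4.22%), and at least 2-fold lower were 334 (3.43%); scaled by total counts the balance turned, to 337 higher and 404 lower. At least 4-fold higher were 57 genes (0.586%) and at least 4-fold lower 79 (0.812%), and for 37 and 51 of them the whole counting interval lay beyond 4-fold. The plot of ratio against level shows these genes at the edges of a cloud centred on 0.

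**Figure D1:**
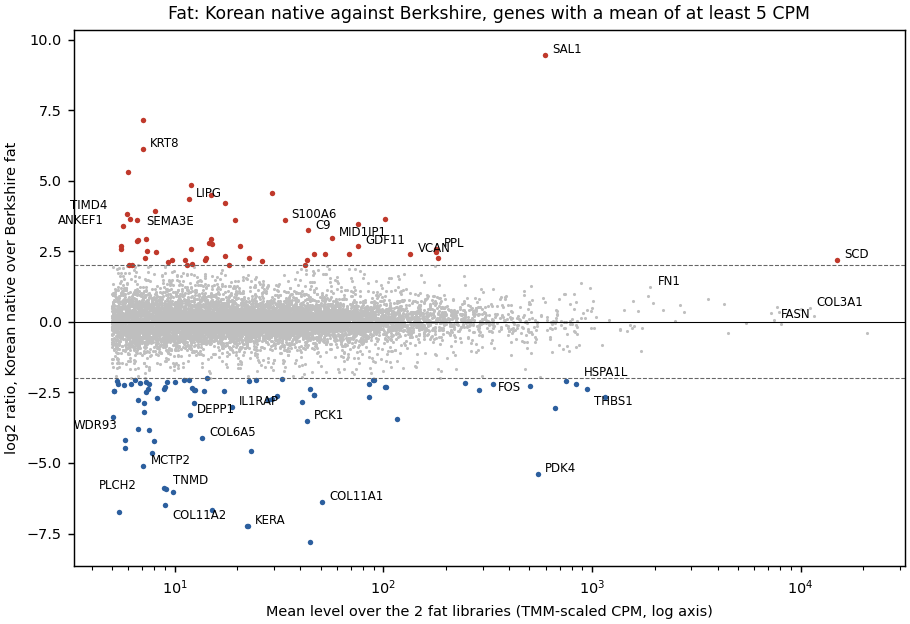
Each point is 1 of 9724 genes, with its mean level over the 2 fat libraries (TMM-scaled CPM, log axis) across and the log2 ratio of Korean native over Berkshire fat upwards. The 57 genes at least 4-fold higher are red and the 79 at least 4-fold lower are blue, dashed lines mark 4-fold, and SAL1 at the top and PDK4 and SCD at high levels stand clear of the cloud.

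The largest ratio upwards belonged to SAL1, which encodes a salivary lipocalin, a small carrier of hydrophobic ligands. It had 17 counts (1.69 CPM) in Berkshire fat and 11947 counts (1192 CPM) in Korean native fat, a ratio of 707 (95% counting interval 442 to 1215). SAL1 was nearly silent elsewhere: both livers stayed under 0.4 CPM, and muscle had 0.182 CPM in Berkshire and 2.54 CPM in Korean native. Lipocalins form a family of similar genes, so that its level is uncertain where reads could be shared. LIPG, the endothelial lipase that acts on the phospholipids of lipoproteins, had 1.09 and 22.4 CPM, 20.5-fold higher (11.2 to 41.7). TIMD4, a receptor of resident macrophages for phosphatidylserine, had 0.793 and 11.1 CPM, 14.0-fold higher (6.85 to 33.2). C9, the pore-forming last component of complement, had 8.33 and 78.7 CPM, 9.46-fold higher (7.54 to 11.99).

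Of the other genes with the largest ratios upwards, some are known from cell types other than adipocytes. In bulk tissue a difference in the number of cells of a type and in RNA per cell cannot be told apart, here and below. KRT8, a keratin of simple epithelia, had 2 counts in Berkshire and 139 in Korean native fat, a ratio of 70.0 with a wide interval (19.0 to 583). Its partner KRT18 had 0 and 36 counts, at least 12.1-fold higher with the 0 taken as 3 counts (the exact interval starts at 9.33), but at 3.59 CPM it stayed below the filter. The epithelial adhesion gene EPCAM had 0 counts in both fats, while CDH1 had 2.68 and 1.10 CPM and the mesothelial factor WT1 5.45 and 0.200 CPM, the opposite direction. S100A6, a calcium-binding protein, was 12.3-fold higher (5.05 and 62.2 CPM), the guidance molecule SEMA3E 12.3-fold (0.991 and 12.2 CPM) and ANKEF1 12.6-fold (0.892 and 11.3 CPM). MID1IP1, which promotes the polymerisation of acetyl-CoA carboxylase, GDF11, a ligand of the transforming growth factor family, and PPL, the junctional protein periplakin, were 7.93-fold, 6.46-fold and 6.03-fold higher, PPL with 51.0 and 307.7 CPM.

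The largest ratios downwards among genes with a symbol included those of several matrix genes. KERA, the proteoglycan keratocan, had 450 counts (44.6 CPM) in Berkshire and 3 counts in Korean native fat, 149-fold lower (50.7 to 725). COL11A1 and COL11A2, chains of the fibrillar collagen XI of cartilage, had 100.3 and 1.20 CPM and 17.8 and 0.200 CPM, ratios of 83.8 (47.8 to 163) and 89.4 (24.4 to 744), the second resting on 2 counts. TNMD, tenomodulin, a membrane protein of tendon that adipocytes also make, had 183 counts and 0 counts, at least 60.6-fold lower with the 0 taken as 3 counts, while the exact interval for a count of 0 starts at 48.8. COL6A5, a chain of collagen VI, had 25.7 and 1.497 CPM, 17.1-fold lower (10.21 to 31.1). These matrix genes were well counted in Berkshire fat and near the floor in Korean native fat.

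PDK4, the kinase that switches off pyruvate dehydrogenase and spares glucose, had 10822 counts (1073 CPM) in Berkshire and 256 counts (25.5 CPM) in Korean native fat, 42.0-fold lower (37.1 to 47.7). PCK1, phosphoenolpyruvate carboxykinase, which in adipocytes makes glycerol 3-phosphate for re-esterification, had 79.3 and 6.99 CPM, 11.3-fold lower (8.88 to 14.7). DEPP1, a target of the transcription factor FOXO, had 21.4 and 2.19 CPM, 9.75-fold lower (6.28 to 15.9). IL1RAP, the co-receptor of interleukin 1, had 33.5 and 4.19 CPM, 7.995-fold lower (5.79 to 11.3). PLCH2, MCTP2 and WDR93 were 58.6-fold, 34.5-fold and 13.9-fold lower, with 17.6, 13.8 and 12.5 CPM in Berkshire fat and 3, 4 and 9 counts in Korean native fat.

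**Figure D2:**
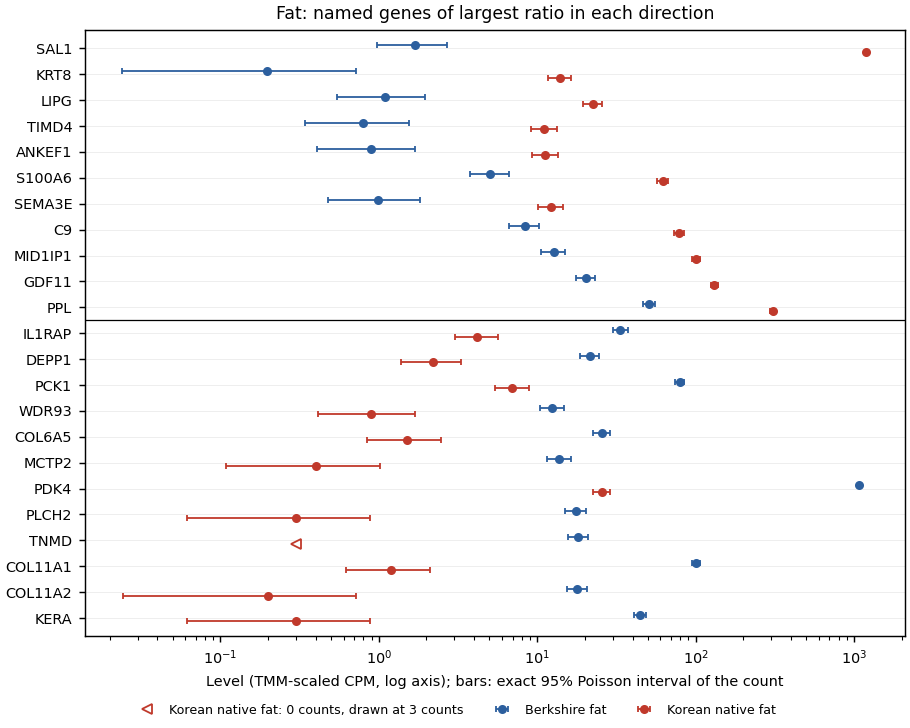
Named genes of largest ratio, 11 higher in Korean native fat above the line and 12 lower below it, with their level in Berkshire fat (blue) and Korean native fat (red) in TMM-scaled CPM on a log axis and the exact 95% Poisson interval of each count. SAL1 spans 1.69 to 1192 CPM, PDK4 spans 1073 to 25.5 CPM, the interval is widest where a library holds only 2 to 4 counts, and the 0 counts of TNMD are drawn at 3 counts as an open mark.

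Fatty acid synthesis genes were mostly higher in Korean native fat, with the largest ratio for MID1IP1 (7.93, given above) and the largest difference in CPM for SCD. SCD, stearoyl-CoA desaturase, had 54443 and 246943 counts, 5397 and 24640 CPM, a ratio of 4.57 (4.52 to 4.61), and was the gene with the largest gain in CPM. FASN, fatty acid synthase, was nearly level at 7235 and 7608 CPM, a ratio of 1.05 that turned to 0.991 with scaling by total counts. Between SCD and FASN lay the suppliers of carbon and reducing power: ME1, malic enzyme, had 548.2 and 1092 CPM (1.99-fold), ACLY, ATP citrate lyase, 501 and 988 CPM (1.97-fold) and ACACA, acetyl-CoA carboxylase, 632.3 and 1042 CPM (1.65-fold). PGD, an enzyme of the pentose phosphate pathway, was 1.40-fold higher at 232 and 324 CPM. Of 17 genes on the list 13 had an ID and passed the filter, 10 of them higher and 3 lower, 2 at least 2-fold higher (SCD and MID1IP1) and 0 at least 2-fold lower. Their median log2 ratio was 0.36, beside 0.01 over all genes. The 3 lower ones were the sugar-sensing factor MLXIPL at 228 and 176 CPM, the elongase ELOVL5 at 210 and 138 CPM and the desaturase FADS2 at 20.9 and 15.0 CPM.

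The genes of lipid droplets and lipolysis went mostly the other way. All 4 adipocyte markers that had an ID were lower in Korean native fat, and their summed level was 3594 CPM in Berkshire and 1909 CPM in Korean native fat. Besides PLIN1 (1.76-fold lower, 1.71 to 1.82) these were LIPE, hormone-sensitive lipase, at 1048 and 507.5 CPM (2.06-fold), CIDEC, which fuses droplets, at 868.8 and 414 CPM (2.10-fold), and PNPLA2, the first lipase of triglyceride breakdown, at 567.9 and 358.5 CPM (1.58-fold). On the whole lipolysis list 3 of 11 genes past the filter were higher and 8 lower, with 1 and 4 at least 2-fold apart and a median of -0.78. ABHD5, the activator of PNPLA2, had 133 and 49.0 CPM (2.71-fold lower), and ADRB1, a receptor for catecholamines, 15.0 and 6.49 CPM (2.31-fold lower). The higher members were PDE3B, the phosphodiesterase through which insulin restrains lipolysis, at 14.5 and 37.0 CPM (2.56-fold), PLIN4 at 1445 and 1874 CPM (1.30-fold) and the adenosine receptor ADORA1 at 58.8 and 70.8 CPM. Storage enzymes leaned lower as well: of 7 glyceride synthesis genes 2 had a ratio above 1 and 5 below, with a median of -0.53, LPIN1 (phosphatidate phosphatase) standing at 349 and 204 CPM and DGAT1, which makes triglyceride, at 41.4 and 28.6 CPM.

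Cholesterol synthesis genes were modestly higher in Korean native fat. Of 25 genes on the list 21 had an ID and 19 passed the filter, 16 of them with a ratio above 1 and 3 below. A counting interval clear of 1 was found for 12 and 1 of these, beside 52.5% of all genes. The median log2 ratio was 0.62, and 3 genes were at least 2-fold higher. SQLE, squalene epoxidase, had 7.63 and 25.5 CPM (3.35-fold, 2.58 to 4.38), ACAT2, which starts the pathway, 21.2 and 45.6 CPM (2.15-fold) and HMGCS1 35.8 and 76.7 CPM (2.14-fold). LSS, lanosterol synthase and the most abundant member, had 117 and 205 CPM (1.75-fold), and FDPS, which makes farnesyl pyrophosphate, 35.2 and 64.7 CPM (1.84-fold). INSIG1, which restrains the pathway, was lower at 85.9 and 65.6 CPM.

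In glucose use, the genes of glycolysis and the mitochondrially encoded chain genes leaned higher, and the nuclear-encoded chain genes slightly lower. Of 16 glycolysis genes past the filter 12 were higher and 4 lower, with 3 at least 2-fold higher and a median of 0.34. LDHA, lactate dehydrogenase A, had 57.0 and 178 CPM (3.11-fold, 2.83 to 3.43), HK2, the insulin-responsive hexokinase, 40.3 and 119 CPM (2.96-fold) and PFKP, a phosphofructokinase, 24.5 and 59.5 CPM (2.43-fold). PFKFB3, which makes the activator of phosphofructokinase, was lower at 43.6 and 23.4 CPM. PDK4 stood alone among the genes of pyruvate dehydrogenase and its control: of 11, 6 were higher and 5 lower, and the other ten had log2 ratios no further from 0 than that of DLAT, at 82.6 and 132 CPM. Of 10 glycogen genes 7 were higher and 3 lower; PPP1R3C, which targets a phosphatase to glycogen, had 19.6 and 56.2 CPM (2.86-fold), the muscle phosphorylase PYGM 5.05 and 19.7 CPM (3.89-fold), and the liver-type synthase GYS2 was lower at 83.0 and 34.9 CPM (2.38-fold). Of 19 nuclear-encoded respiratory chain genes 4 were higher and 15 lower, all within 2-fold, with a median of -0.21, and of 13 mitochondrially encoded ones 9 were higher and 4 lower, with a median of 0.32. Fatty acid oxidation genes were split 7 to 6 with a median of 0.10. All 7 insulin signalling genes past the filter had a ratio below 1, IRS1 by less than counting error, and FOXO3, at 60.3 and 20.9 CPM, was the only 1 at least 2-fold lower.

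Glucocorticoid and fasting response genes were mostly lower in Korean native fat. Of 25 genes on the list 16 had an ID and 14 passed the filter. Of these 13 were lower, 9 of them at least 2-fold, and the median log2 ratio was -1.38. Over all genes 48.7% were lower and 3.43% at least 2-fold lower. Beside PDK4 and PCK1, FBXO32, a ubiquitin ligase induced in fasting, had 29.1 and 5.39 CPM (5.41-fold lower, 4.04 to 7.37). PER1, a clock gene with a strong glucocorticoid response, had 292 and 86.7 CPM (3.36-fold), and FKBP5, a chaperone of the glucocorticoid receptor, 212 and 71.0 CPM (2.99-fold). ZBTB16 had 48.4 and 17.6 CPM (2.75-fold), ANGPTL4, the fasting-induced inhibitor of lipoprotein lipase, 103 and 42.0 CPM (2.46-fold) and CPT1A, the entry enzyme of fatty acid oxidation, 78.5 and 41.9 CPM (1.87-fold). The exception was CRISPLD2, at 58.4 and 81.9 CPM, while SGK1 was close to level at 58.7 and 50.3 CPM. The receptor itself, NR3C1, was not lower, with 46.9 and 62.9 CPM (1.34-fold higher, 1.19 to 1.51), and HSD11B1, which regenerates active glucocorticoid inside the cell, had 18.6 and 51.1 CPM (2.74-fold higher, 2.31 to 3.26).

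Immediate early genes, transcribed within minutes of a stimulus, were also lower. Of 14 past the filter 11 were lower and 3 higher, 8 at least 2-fold lower and 0 at least 2-fold higher, with a median of -1.23. Over all genes 48.7% were lower, 3.43% at least 2-fold lower and 4.22% at least 2-fold higher. DUSP1 is on this list and on the glucocorticoid list, so the lists are not separate. FOS had 837 and 174 CPM (4.82-fold lower, 4.58 to 5.08), EGR1 726 and 230 CPM (3.16-fold), DUSP1, which inactivates stress kinases, 571 and 251 CPM (2.28-fold) and JUNB 125 and 51.7 CPM (2.42-fold). KLF4 at 103 and 155 CPM, EGR2 at 7.73 and 13.2 CPM and FOSL1 at 11.4 and 13.7 CPM were the ones with a ratio above 1, the last within counting error. Heat shock genes leaned lower by less, 10 of 11 with a median of -0.31, and 1 of them, the co-chaperone DNAJB1, at least 2-fold (54.8 and 21.4 CPM). HSPA1L, not on that list, had 1378 and 302.9 CPM (4.55-fold lower, 4.37 to 4.73), but it belongs to a cluster of near-identical HSP70 genes and its level is uncertain. Among 11 clock genes 4 were higher and 7 lower, with a median of -0.24; apart from PER1 only HLF reached 2-fold (10.5 and 4.29 CPM).

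**Figure D3:**
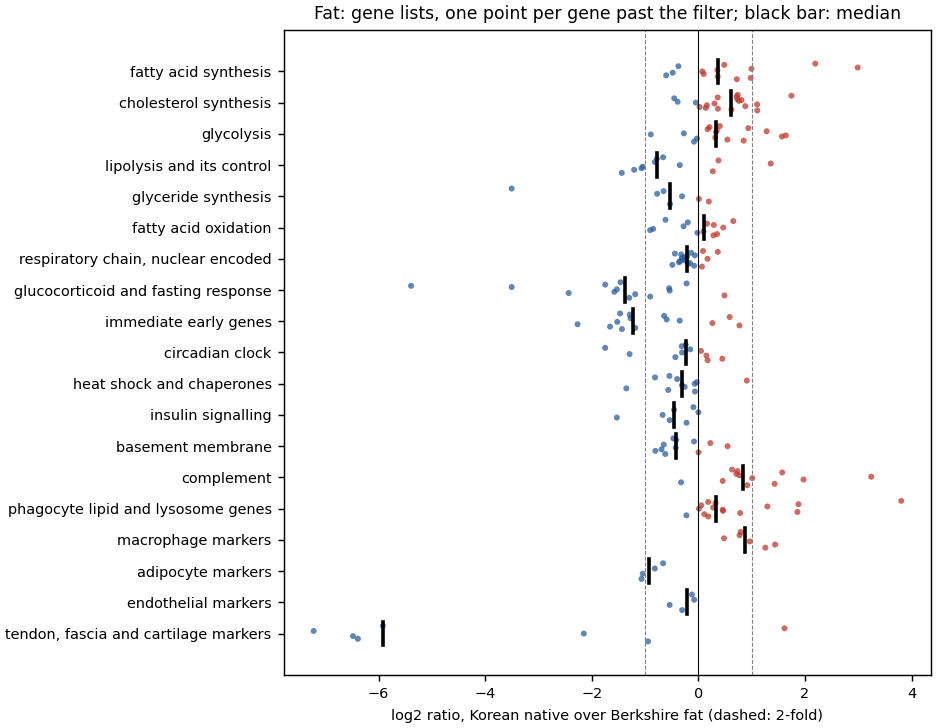
Log2 ratio of Korean native over Berkshire fat for each gene past the filter (points, red above 0 and blue below) in 19 lists, with the list median as a black bar and dashed lines at 2-fold. The medians of the glucocorticoid list (-1.38), the immediate early genes (-1.23) and the 7 tendon, fascia and cartilage markers (-5.92) lie beyond the 2-fold line. The last median is the value of TNMD, whose count of 0 in Korean native fat was replaced by the floor count. It therefore follows from that setting and is not a measured ratio. The members of that list run from -7.22 (KERA) to 1.61 (THBS4), with FMOD, the most abundant, at -2.15.

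The matrix differed gene by gene rather than in 1 direction. Collagens III, I and VI were higher in the Korean native library: COL3A1 had 9175 and 12910 CPM (1.41-fold, 1.40 to 1.42), COL1A2 2442 and 3081 CPM (1.26-fold) and the collagen VI chains COL6A1, COL6A2 and COL6A3 280, 494 and 1524 CPM in Berkshire and 487, 981 and 2401 CPM in Korean native fat (1.74-fold, 1.99-fold and 1.58-fold). In contrast COL12A1, which decorates fibrils in dense tissue, had 552 and 119 CPM (4.62-fold lower, 4.34 to 4.92) and COL5A3 892 and 506 CPM (1.76-fold lower). Together with COL11A1, COL11A2 and COL6A5 this left 8 of 13 collagens higher and 5 lower, with a median of 0.24, 0 at least 2-fold higher and 4 at least 2-fold lower. Of the 4, COL11A1, COL11A2 and COL6A5 passed the filter only through their level in Berkshire fat. Their direction was thus fixed by the filter, and their count as lower is no separate support.

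Matricellular proteins and proteoglycans were divided 12 to 12, and 12 of the 24 were at least 2-fold apart. Higher in Korean native fat were VCAN, the large proteoglycan versican, at 42.9 and 226 CPM (5.27-fold, 4.75 to 5.85), THBS4 at 7.43 and 22.8 CPM (3.06-fold), FBN1, fibrillin of elastic microfibrils, at 497.2 and 1277 CPM (2.57-fold), FN1, fibronectin, at 1134 and 2682 CPM (2.37-fold) and TNXB, tenascin X, at 304 and 644 CPM (2.12-fold). DCN, decorin, followed at 1293 and 2436 CPM (1.88-fold). Lower were THBS1, a thrombospondin that activates latent growth factor, at 1587 and 308.7 CPM (5.14-fold, 4.95 to 5.34), FMOD, fibromodulin of tendon, at 402 and 90.6 CPM (4.44-fold), CCN1 at 152 and 46.1 CPM (3.31-fold), TNC, tenascin C, at 45.5 and 13.9 CPM (3.28-fold), ASPN at 157 and 58.7 CPM (2.68-fold) and CCN2 at 200 and 91.0 CPM (2.19-fold). KERA was the seventh, and passed the filter only through its level in Berkshire fat. THBS1, CCN1 and CCN2 are known to respond quickly to stretch, serum and injury. Whether that bears on their lower level here was not tested.

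**Figure D4:**
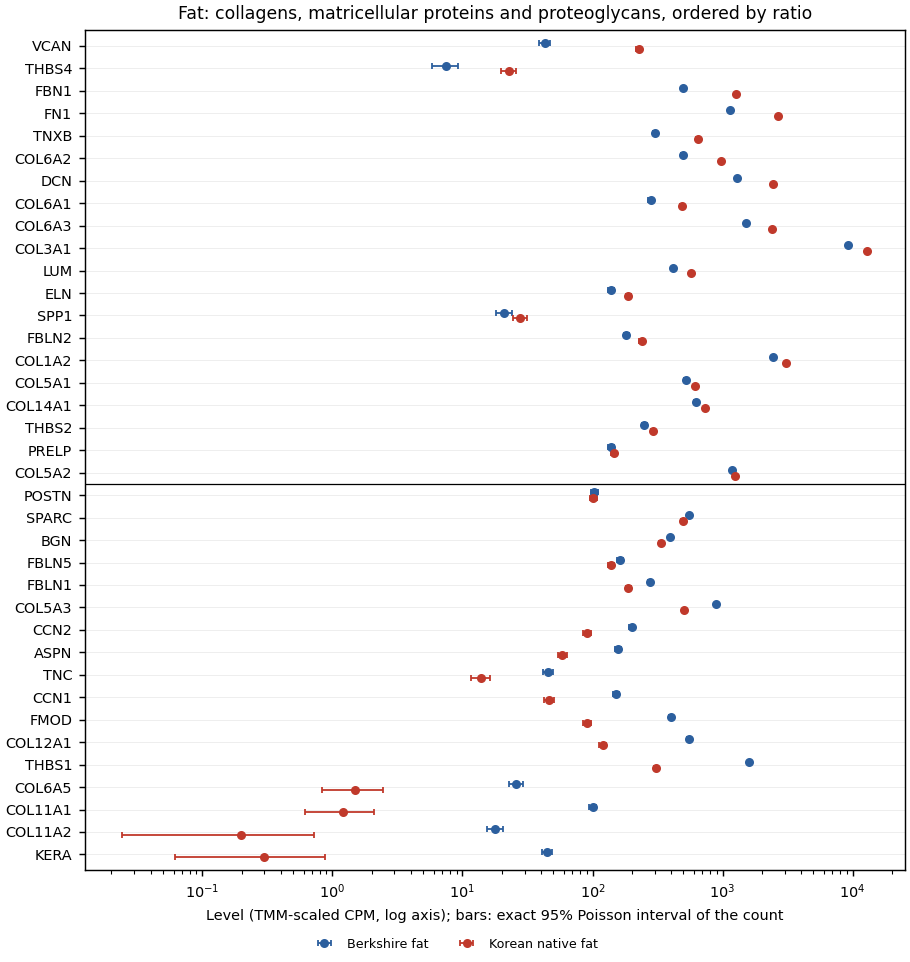
Level in Berkshire fat (blue) and Korean native fat (red) of the collagens, matricellular proteins and proteoglycans past the filter, in TMM-scaled CPM on a log axis with exact 95% Poisson intervals, ordered by ratio; genes above the line were higher in Korean native fat. VCAN at the top and KERA, COL11A2, COL11A1 and COL6A5 at the bottom are the far ends, while COL3A1, at 9175 and 12910 CPM, is the most abundant.

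Matrix remodelling genes were split 7 to 7, with a median of -0.16. PLAU, the urokinase protease, had 29.3 and 107 CPM (3.65-fold higher), LOXL1, which crosslinks elastin, 15.5 and 37.8 CPM (2.45-fold) and MMP2, a gelatinase, 417 and 742 CPM (1.78-fold). ADAMTS4 and ADAMTS1, proteases that cut versican and other proteoglycans, had 74.9 and 14.4 CPM (5.22-fold lower, 4.36 to 6.28) and 65.6 and 18.1 CPM (3.63-fold lower). Basement membrane genes leaned lower, 8 of 11, within 2-fold and with a median of -0.43; COL4A2, a collagen IV chain, had 1419 and 810 CPM (1.75-fold lower), LAMB1 405 and 258 CPM, and LAMA4 was higher at 270 and 395 CPM.

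The list of tendon, fascia and cartilage markers is largely made of genes already given, with FMOD the most abundant and CILP, at 73.2 and 38.02 CPM, the only further 1 past the filter. Of its 11 genes 10 had an ID and 7 passed the filter, 6 lower and 1 (THBS4) higher. KERA, COL11A1, COL11A2 and TNMD passed it only through their level in Berkshire fat, so that their direction was fixed by the filter. Their count as lower is therefore no separate support. The summed level of all 10 was 669 CPM in Berkshire and 154 CPM in Korean native fat. ACAN and COL2A1, the defining genes of cartilage, were at 1.98 and 0.200 CPM and at 2.97 and 0.798 CPM, below the filter, and COMP was at 0.793 and 0.200 CPM. SCX, the defining factor of tendon, had no ID by name. Stromal markers of fat itself were higher in sum (2095 and 3378 CPM, 4 of 6 higher), most of it from DCN, given above. PDGFRA, the receptor of adipocyte precursors, had 36.4 and 70.5 CPM and PDGFRB 54.7 and 67.8 CPM, whereas DPP4, of the earliest precursors, had 10.1 and 2.20 CPM (4.61-fold lower) and PI16, another precursor gene, 283 and 229 CPM (1.24-fold lower). CD248, a stromal surface protein outside the list, had 63.2 and 302 CPM (4.78-fold higher). The part of such cells in the matrix values was not tested.

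Macrophage and complement genes were higher in Korean native fat. All 6 macrophage markers past the filter were higher, each with a counting interval above 1. Over all genes 52.5% had an interval clear of 1, in either direction. The markers had a median of 0.88 and a summed level of 151 CPM in Berkshire and 286 CPM in Korean native fat. CD68, a lysosomal glycoprotein, had 10.9 and 29.5 CPM (2.71-fold, 2.17 to 3.40), CD14, the lipopolysaccharide co-receptor, 16.6 and 39.5 CPM (2.39-fold), CSF1R, the receptor for macrophage growth factor, 43.9 and 85.6 CPM (1.95-fold) and the mannose receptor MRC1 60.2 and 103 CPM (1.71-fold). Other macrophage genes, picked after their values were seen, ranged more widely. LYVE1, which lymphatic vessels also express, had 31.4 and 115 CPM (3.67-fold, 3.24 to 4.17), CD209 had 21.5 and 115 CPM (5.34-fold), and FOLR2, a folate receptor of resident macrophages, 32.4 and 44.4 CPM (1.37-fold, 1.18 to 1.58). The proteases CTSL (17.4 and 62.9 CPM, 3.62-fold) and LGMN (107 and 262 CPM, 2.45-fold) were higher, and 14 of 15 phagocyte lipid and lysosome genes had a ratio above 1, with a median of 0.32. TIMD4, on that list, passed the filter only through its level in Korean native fat.

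In the complement list 11 of 12 genes past the filter were higher, 5 of them at least 2-fold, with a median of 0.84. Over all genes 51.3% were higher and 4.22% at least 2-fold higher. C4A had 72.1 and 282 CPM (3.92-fold, 3.61 to 4.26; its near-identical copies make the level uncertain), C2 24.6 and 66.2 CPM (2.69-fold), the activator CFP 6.44 and 19.2 CPM (2.97-fold) and C1QA, a macrophage product, 48.6 and 91.6 CPM (1.89-fold). SERPING1, the inhibitor of C1, was the most abundant at 616 and 953 CPM, and CFD, the adipocyte protease adipsin, had 117 and 200 CPM (1.71-fold), against the direction of the adipocyte markers above. C3 alone was lower, at 51.9 and 41.4 CPM. Hepatocyte markers were at low levels in both fats: besides ALB, TF had 3.67 and 6.09 CPM, and FGB and APOA2 stayed under 0.3 CPM.

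Lymphocytes left little trace, since none of 5 T and NK cell markers and none of 3 B cell markers with an ID reached the filter, with summed levels of 14.7 and 10.8 CPM and of 1.09 and 0.499 CPM. Cytokine and interferon genes showed no common shift. Of 9 cytokine genes 5 were higher and 4 lower, IL33, an alarm signal of stromal cells, at 21.6 and 71.8 CPM (3.33-fold higher) and the neutrophil attractant CXCL2 at 79.6 and 13.3 CPM (6.00-fold lower, 4.99 to 7.26). Interferon response genes were split 7 to 7 with a median of 0.00; OAS2 had 33.1 and 79.2 CPM, MX2 40.4 and 13.5 CPM and IFIT2 43.5 and 15.8 CPM. Of 4 antigen presentation genes past the filter 1 was higher and 3 lower.

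The vascular marker genes stayed within 2-fold. All 4 endothelial markers with an ID had a ratio below 1, 2 of them clear of counting error, which is near the share over all genes. Of all genes 52.5% were clear of it, in either direction. The summed level of the markers was 995 CPM in Berkshire and 729 CPM in Korean native fat. PECAM1 had 745 and 512 CPM (1.46-fold lower) and KDR, the receptor of vascular endothelial growth factor, 132 and 107 CPM (1.24-fold). The Notch pair of arterial endothelium, picked after their values were seen, stood further apart. NOTCH4 had 169 and 34.3 CPM (4.92-fold lower, 4.38 to 5.54) and its ligand DLL4 43.7 and 14.3 CPM (3.06-fold lower, 2.53 to 3.73). Smooth muscle and pericyte markers were split 2 to 3, TAGLN at 256 and 183 CPM and DES at 10.5 and 15.2 CPM. Blood markers were higher, HBB (a globin with close copies) at 111 and 179 CPM and ALAS2, the haem enzyme of erythroid cells, at 2.78 and 8.48 CPM.

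Retinoid, hormone and growth factor genes held some of the larger single differences. Of 9 retinoid genes past the filter 7 were higher, with a median of 0.74: ALDH1A2, which makes retinoic acid, had 16.8 and 88.5 CPM (5.28-fold, 4.48 to 6.26), CRABP2, which carries it to its receptor, 1.59 and 11.8 CPM (7.42-fold, 4.39 to 13.4) and RBP4, the plasma carrier of retinol, 37.8 and 124 CPM (3.27-fold). CRABP2 and RARRES1 passed the filter only through their level in Korean native fat, so that they could count only as higher. RETSAT, the most abundant, was nearly level at 898 and 789 CPM. Of 6 steroid hormone genes 5 were higher, with a median of 0.54. In the insulin-like growth factor axis 5 of 9 were higher; IGF1 had 17.7 and 32.8 CPM, IGFBP5 94.8 and 188 CPM and STC2, which blocks a protease of the binding proteins, 3.47 and 26.5 CPM (7.65-fold, 5.37 to 11.2), while the growth hormone receptor GHR was lower at 332 and 196 CPM.

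Adipogenic factors, which direct fat cell formation, stayed within 2-fold. PPARG, the master regulator, had 166 and 140 CPM and CEBPA 114 and 130 CPM, and 6 of 9 factors were higher with a median of 0.27, the largest ratios being those of the precursor factors EBF2 (12.7 and 24.6 CPM) and ZNF423 (27.9 and 52.6 CPM). Of 11 adipokine and secreted factor genes 5 were higher and 6 lower, AGT, angiotensinogen, standing at 665 and 404 CPM. The brown and beige fat markers with an ID, PRDM16, PPARGC1A and ELOVL3, did not reach the filter in either breed.

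Homeobox genes, whose pattern records body position and differs between fat depots, were compared because the depot is not named in the labels. Of 36 genes on the list 25 had an ID and 13 passed the filter, 7 higher and 6 lower. Beside 52.5% of all genes, 3 and 4 of these had a counting interval clear of 1. The other six differed by no more than counting error, among them HOXC6 at 12.8 and 14.4 CPM, HOXD4 at 15.1 and 14.2 CPM and HOXB7 at 7.63 and 10.3 CPM. TBX5, a forelimb factor counted on this list though it is a T-box and not a homeobox gene, had 1.69 and 12.9 CPM (7.64-fold higher, 4.59 to 13.5). SHOX2, a limb factor, had 3.07 and 12.2 CPM (3.96-fold higher, 2.65 to 6.08). TBX5 and SHOX2 passed the filter only through their level in Korean native fat, so that their direction was fixed by it. HOXA5, the most abundant member, had 129 and 58.0 CPM (2.23-fold lower, 2.02 to 2.46), and HOXA3, HOXD3 and HOXB6 were 1.77-fold, 1.61-fold and 1.55-fold lower. A difference of depot or dissection site and a difference of breed cannot be told apart in these 2 libraries.

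The remaining lists held few large ratios. Proteasome genes had a median of 0.21 (11 of 14 higher, all within 2-fold), unfolded protein response genes -0.21 (4 of 11 higher, all within 2-fold), iron and copper genes 0.39 (4 of 6 higher, with the transferrin receptor TFRC at 14.3 and 38.8 CPM) and hypoxia response genes -0.03 (4 of 8 higher). Lipid uptake genes were split 4 to 4 with a median of 0.02, LIPG and ANGPTL4 being the 2 genes at least 2-fold apart. Of the cell cycle list only 2 genes passed the filter, TOP2A at 10.7 and 8.98 CPM and CDC20 at 25.4 and 34.5 CPM. KIT, a mast cell gene, had 24.9 and 10.8 CPM.

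The libraries of liver and muscle, set beside fat with no test, give the ratio of the same genes in the same breeds. Of the 57 genes at least 4-fold higher in Korean native fat, 27 reached a mean of 5 CPM in liver, where 11 were at least 2-fold higher and 3 at least 2-fold lower, beside 4.09% and 3.99% of all genes measured in both tissues. In muscle 31 were measured, with 9 at least 2-fold higher and 7 at least 2-fold lower, beside 8.53% and 9.50%. Of the 79 genes at least 4-fold lower in fat, 43 were measured in liver and 52 in muscle, and 19 and 31 of them were at least 2-fold lower there as well, against 2 and 3 at least 2-fold higher. In muscle 46 of the 52 genes lower in fat had a ratio below 1, while of the 31 genes higher in fat 13 had a ratio above 1 and 18 below. Their median log2 ratios in muscle were -1.38 and -0.48, beside 0.02 over all genes past the filter in fat and in muscle.

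Lower in both were PDK4, with 3480 CPM in Berkshire and 8.07 CPM in Korean native muscle, and THBS1, with 202 and 53.5 CPM in muscle and 133 and 47.7 CPM in liver. The glucocorticoid list had a median log2 ratio of -0.64 in liver and -1.37 in muscle, but FKBP5 was higher in Korean native liver (117 and 202 CPM). Immediate early genes had medians of -0.16 in liver and -0.07 in muscle; FOS had 66.1 and 69.2 CPM in liver and 78.9 and 112 CPM in muscle. The cholesterol list had a median of 1.51 in liver and 0.28 in muscle. KERA and COL11A1 were also lower in Korean native muscle, at 45.7 and 12.4 CPM and at 30.6 and 22.8 CPM, by far less than in fat. Whether these ratios differ between tissues was not tested, since each has 1 library for each breed.

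**Figure D5:**
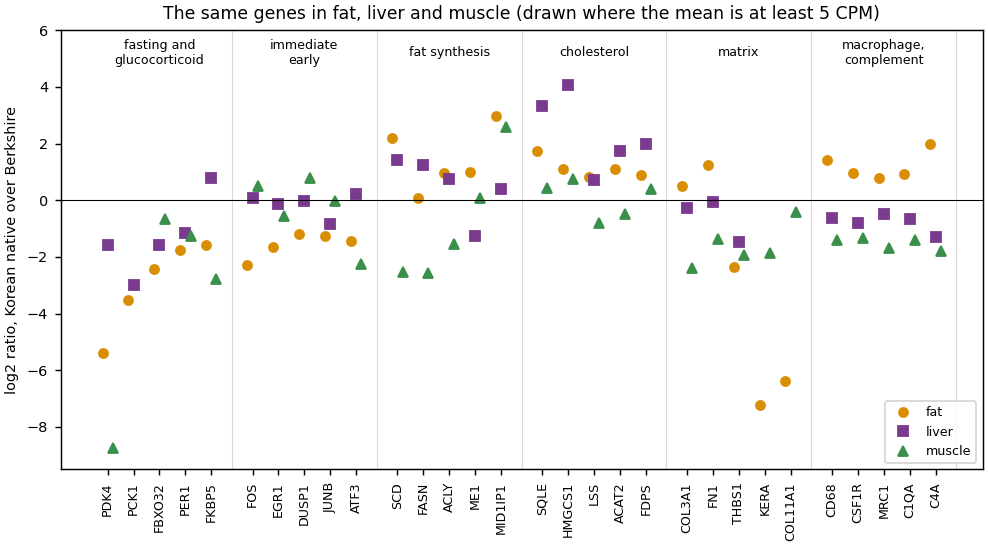
Log2 ratio of Korean native over Berkshire for 30 genes of 6 groups in fat (circles), liver (squares) and muscle (triangles), drawn where the mean of both libraries reached 5 CPM. PDK4 and THBS1 lie below 0 in all 3 tissues, FOS lies below 0 in fat alone, and CD68, CSF1R, MRC1, C1QA and C4A lie above 0 in fat and below 0 in liver and muscle.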

How the data were processed

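RNA of fat, liver and muscle of 2 pig breeds was sequenced in 6 libraries made with an Illumina TruSeq kit from 1 µg of total RNA, per the labels' protocols. The authors deposited raw read counts per Ensembl gene, made with TopHat and HTSeq 0.5.3p3 on build Sscrofa10.2, per the submitters' processing notes. The release of the annotation, the counting mode and the strand setting were not given in the sources used here. Overlapping and antisense genes therefore cannot be told apart. The 5 closing entries without a gene were left out. In the fats reads assigned to no counted feature made up 52.5% (Berkshire) and 52.0% (Korean native) of all entries. Reads without a unique alignment made up 14.4% and 14.1%. A table of gene names gave 11804 of the 25322 IDs a symbol, with 77.8% and 79.6% of the fat counts.

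Counts were divided by TMM-scaled library sizes (edgeR 4.0.16, R 4.3.3). The ratio of 2 counts has the exact conditional (Clopper-Pearson) 95% interval (scipy 1.17.1), and a count of 0 was set to 3. Genes with a mean of at least 5 CPM over the fats were counted at 2-fold and 4-fold. Intervals cover counting error only, and read copies made by PCR are not independent molecules. The interval's coverage was tested on simulated Poisson counts, which an exact interval covers by construction. The simulated counts held no PCR copies and no variation between animals. The 51 gene lists were described by counts and medians. The genes and lists were chosen with earlier results of these data known. The text names 12 genes with a symbol and the greatest ratios each way (by the bound nearer to 1), the 10 of largest difference in CPM, up to 6 members of a list and the label checks; other members and the genes named outside the lists were picked after their values were seen. Some genes that this rule names are not reported here. Alternatives were other scalings (TMM on the fats, total counts, DESeq2 1.42.0 size factors), other filters, a prior count and a call by the nearer bound.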

Additional observations from a re-analysis of the deposited data

Results flagged for a closer look

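Some of the named genes and lists pointed in opposite directions in fat and in another tissue, a difference that was not tested, since each breed and tissue has 1 library. For genes both ratios had to be at least 2-fold, with the counting interval in the other tissue clear of 1. Lists needed at least 5 measured members. Their median had to be at least 0.2 from 0 in fat and at least 0.5 from 0 the other way elsewhere. SCD, 4.57-fold higher in Korean native fat, had 922 and 158 CPM in Berkshire and Korean native muscle, a ratio of 0.172. The adipocyte genes PLIN1, LIPE and CIDEC, lower in Korean native fat too, had similar ratios in muscle, 0.198, 0.246 and 0.2015. FN1 had a ratio of 2.37 in fat and 0.391 in muscle, C9 9.46 in fat and 0.479 in muscle, and TIMD4 14.0 in fat and 0.428 in liver.

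In muscle the median log2 ratio was -0.877 for adipose stroma markers, -1.32 for macrophage markers, -0.955 for fatty acid synthesis, -0.712 for adipogenic factors, -1.41 for fibrillar and beaded collagens, -1.14 for complement and -1.28 for retinoid genes, each above 0 in fat. Complement genes were also below 0 in liver, at -0.583. Nuclear-encoded respiratory chain genes, below 0 in fat, stood at 0.916 in muscle. Adipocyte markers, not flagged because they were below 0 in fat as well, had a median of -2.17 in muscle, with 0 of 4 higher. The part of fat cells within the muscle samples in these medians was not tested.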

How the results depend on the processing

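The counts of genes depended on the filter. With a mean of at least 1 CPM, 180 and 187 genes were at least 4-fold higher and lower in Korean native fat and 835 and 682 at least 2-fold; with no filter these were 409, 322, 1671 and 1145, and with at least 10 CPM in both fats 14, 21, 184 and 154. Asking the nearer bound of the interval to pass the fold left 37, 51, 197 and 194. The 3 other scalings and the prior count of 2 kept each count within 1.5 times of the 57, 79, 410 and 334 reported. Total counts moved the median gene to -0.07 and the share of 2-fold genes that were higher from 55.1% to 45.5%, and turned FASN (0.991), ATP5F1A (0.987) and COL5A2 (0.988) below 1. Of 252 named ratios 9 changed direction under some scaling or the prior count, and of 48 list medians 7 did under some scaling or filter, among them those of matrix remodelling, lipid uptake and homeobox genes. No paired analysis was possible because each breed has 1 fat library, and for the same reason no replicate could be left out. Depth limits genes with few counts: a gene at 0 counts may stand anywhere up to 0.297 CPM in Berkshire fat and 0.299 CPM in Korean native fat.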

Other observations

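Some genes outside the lists, picked after their values were seen, had large ratios at high levels. ITIH3, a protein that binds hyaluronan, had 468 CPM in Berkshire and 125 CPM in Korean native fat (3.74-fold lower), and FMO1, a flavin monooxygenase of a family of similar genes, 297 and 75.1 CPM (3.95-fold lower). ALDH1L1, a folate enzyme, had 172 and 34.8 CPM (4.92-fold lower), and LCN2, a lipocalin that binds iron carriers of bacteria, 53.4 and 8.68 CPM (6.16-fold lower), the opposite of the lipocalin SAL1. PHGDH and PSPH, the first and last enzymes of serine synthesis, were both higher, at 7.93 and 24.1 CPM (3.04-fold) and at 9.62 and 42.6 CPM (4.43-fold).

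Of the genes at least 4-fold apart, 35 of 57 higher ones and 42 of 79 lower ones had a symbol. Among those without, ENSSSCG00000030790 had 88.3 CPM in Berkshire and 0.399 CPM in Korean native fat, and was far apart in liver (140.8 and 0.326 CPM) and muscle (58.3 and 0.231 CPM). ENSSSCG00000004665 had 44.5 CPM and 0 counts in the fats and the same direction in liver and muscle. ENSSSCG00000021391 had 0.0991 and 14.1 CPM, and ENSSSCG00000003546, with 15.2 and 189.7 CPM, was higher in Korean native muscle too (5.28 and 31.6 CPM).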
